A study of Mus musculus with 4 samples.

Results

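The genes described are 10 of the 32285 counted in the files: the cyclin-dependent kinase (CDK) inhibitors Cdkn1a, Cdkn1b, Cdkn2b and Cdkn2c, and the p53 target genes Mdm2, Ccng1, Phlda3, Zmat3, Gdf15 and Bax. They were chosen by name, not by a rule on their values, but with earlier results of these data known. Levels were read in 4 single-cell RNA-seq libraries of C3H10T1/2 cells, a line of mouse mesenchymal progenitor cells (MPC), with 1 library for each condition. The conditions were H3WT and H3R26C, each with DMSO, the vehicle, or with 5-Azacytidine (5-Aza), an inhibitor of DNA methyltransferases. The study used 5-Aza as a cue to differentiate and asked whether the response to it differs with H3R26C.

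CDK inhibitors hold back the cell cycle. Proteins of the Cip/Kip family (Cdkn1a, which encodes p21, and Cdkn1b, which encodes p27) bind whole cyclin-CDK complexes, and the INK4 family (Cdkn2b, p15, and Cdkn2c, p18) binds CDK4 and CDK6. When DNA is damaged or a cell is stressed, the transcription factor p53 switches on Cdkn1a together with Mdm2, which marks p53 for destruction, and genes of repair, arrest and cell death. In muscle precursors Cdkn1a is also known to rise with terminal differentiation, when cells leave the cycle, and this rise does not need p53.

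Both cell pools carried a lentiviral EF1 promoter construct with human H3.1 cDNA (the gene H3C2) and C-terminal HA and FLAG tags, either unchanged (H3WT) or with arginine 26 replaced by cysteine (H3R26C). They were kept under puromycin, were not described as single clones, and kept their own histone H3 genes. The 5-Aza cells received 3 µM for 24 h and were collected on day 28. No day is given for the DMSO cells, so treatment and time in culture cannot be told apart. The construct is not in the mouse reference used for counting, so the genotype of a library could not be checked in its counts.

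Of 39891 barcodes, 22049 had at least 5000 unique molecular identifiers (UMIs), at least 1500 genes and at most 20% mitochondrial UMIs, and were kept: 3710 in H3WT DMSO, 5993 in H3WT 5-Aza, 4727 in H3R26C DMSO and 7619 in H3R26C 5-Aza. Kept cells held 84060490 to 110712425 UMIs per library, and median UMIs per cell ran from 13123 to 22420. A cell was called muscle-like where 34 sarcomere genes made up at least 1% of its UMIs. There were 171 such cells in H3WT 5-Aza (2.85% of kept cells) and 226 in H3R26C 5-Aza (2.97%), and 0 in both DMSO libraries, where a count of 0 allows up to 0.0809% and 0.0635%. In the muscle-like cells all 10 non-sarcomeric muscle markers were above 5 CPM (a gene's UMIs per 1000000 UMIs of its group of cells), and their summed level was 5458 CPM in H3WT and 6612 CPM in H3R26C, against 1.01 and 0.964 CPM in the DMSO cells. The remaining, or other, cells expressed 6 of 7 progenitor markers above 5 CPM in each library, with 4088 to 5191 CPM in all. Muscle-like cells still had 5 (H3WT) and 6 (H3R26C) of these 7 above 5 CPM, with 1202 and 1049 CPM in all. Other cells of the 5-Aza libraries had 7 (H3WT) and 9 (H3R26C) of the 10 muscle markers above 5 CPM, at 86.5 and 135 CPM. Endothelial, blood and epithelial marker lists summed to 0 to 14.3 CPM in every group of cells. Any pair of libraries shared 54 to 228 barcode sequences. With 1 library per condition no comparison between conditions can be tested; the intervals given are 95% and cover counting error only.

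The promoters of these genes differ in whether they hold the p53 half-site, the motif that a p53 dimer binds, searched here by name in the 250 bases before each RefSeq start (GRCm38.p6). Of the 9 members with an entry, 4 had at least one. The 4 sequences are printed because Cdkn1a, Mdm2, Ccng1 and Bax also varied together among the cells. Phlda3, which varied with them as well, held no half-site, and Zmat3, which also did, was the member without an entry. Capitals mark exact matches to the half-site pattern. The pattern, not each site, is its own reverse complement, so a match on 1 strand is a match on both. Each sequence runs 5′ to 3′ on the gene's strand and ends 1 base before the start.
Cdkn1a: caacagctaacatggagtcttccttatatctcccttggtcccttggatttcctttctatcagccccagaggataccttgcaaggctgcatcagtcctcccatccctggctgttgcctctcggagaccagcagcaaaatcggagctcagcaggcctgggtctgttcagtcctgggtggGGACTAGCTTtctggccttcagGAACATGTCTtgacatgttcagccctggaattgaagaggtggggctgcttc
Mdm2: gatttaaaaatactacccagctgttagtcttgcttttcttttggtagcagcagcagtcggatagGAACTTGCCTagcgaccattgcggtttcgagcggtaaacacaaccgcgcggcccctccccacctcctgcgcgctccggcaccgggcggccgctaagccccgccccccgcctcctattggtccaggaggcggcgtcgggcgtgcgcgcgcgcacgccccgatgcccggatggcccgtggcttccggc
Ccng1: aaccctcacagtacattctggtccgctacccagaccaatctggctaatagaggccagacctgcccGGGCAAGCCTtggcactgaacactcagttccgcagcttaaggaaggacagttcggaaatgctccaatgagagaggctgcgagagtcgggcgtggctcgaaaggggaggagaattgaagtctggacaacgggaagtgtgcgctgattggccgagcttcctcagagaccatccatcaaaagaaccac
Bax: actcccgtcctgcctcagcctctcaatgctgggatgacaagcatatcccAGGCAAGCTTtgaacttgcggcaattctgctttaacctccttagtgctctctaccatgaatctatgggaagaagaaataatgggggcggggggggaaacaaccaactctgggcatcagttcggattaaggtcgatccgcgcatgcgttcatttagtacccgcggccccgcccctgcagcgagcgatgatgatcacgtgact

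The Cdkn1a window (chr17:29090729-29090978, plus strand) held 2 exact half-sites, which begin 73 and 51 bases before the start with 12 bases between them. The second is followed at once by a stretch that misses the pattern only in its first base. Such near matches were not counted, and sites outside the windows were not searched. Only 0.259% of the 32851 windows of this length held 2 or more, and 7.13% held at least 1. The single half-sites began 186 bases before the start of Mdm2 (chr10:117710759-117711008, minus), 185 before Ccng1 (chr11:40755287-40755536, minus) and 201 before Bax (chr7:45466899-45467148, minus). A second Cdkn1a start, downstream at chr17:29093519-29093768, had none of these letters but 19 CpG dinucleotides, the sites that DNA methyltransferases modify, where the upstream window had 2. The median window had 6, and the window before Cdkn1b (chr6:134920151-134920400) had 28, a number reached by 7.61% of windows. A match of letters is a description of these windows and shows no binding.

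Cdkn1a, the CDK inhibitor p21, separated muscle-like cells from the rest more than any other member. Other cells had 219 CPM in H3WT DMSO, 280 in H3WT 5-Aza, 166 in H3R26C DMSO and 252 in H3R26C 5-Aza. Muscle-like cells had 2780 CPM in H3WT and 1840 in H3R26C. Both muscle-like groups were thus far above all 4 groups of other cells, by 9.92-fold in H3WT (9.66 to 10.2) and 7.30-fold in H3R26C (7.12 to 7.48) against the other cells of the same library. After each cell was thinned to 5000 UMIs, a Cdkn1a UMI was found in 95.9% of muscle-like cells in H3WT and 93.8% in H3R26C (98.8% and 96.9% unthinned). The same shares in other cells were 45.6% in H3WT DMSO, 54.0% in H3WT 5-Aza, 37.99% in H3R26C DMSO and 55.4% in H3R26C 5-Aza (73.8%, 74.8%, 63.7% and 77.2% unthinned). Muscle-like cells thus had a Cdkn1a UMI more often, and also more UMIs per cell: the median muscle-like cell had 6 of 5000 in both genotypes, and the highest had 85 in H3WT and 57 in H3R26C.

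Free RNA from muscle cells was given a size, at the mean ratio of Cdkn1a to Acta1 in muscle-like cells. If all Acta1 in other cells (105 CPM in H3WT 5-Aza and 117 in H3R26C 5-Aza, against 13744 and 13611 in muscle-like cells) had come from muscle-like cells and brought Cdkn1a with it, it would account for 21.3 CPM (7.61%) and 15.8 CPM (6.28%) of Cdkn1a there. Acta1, skeletal muscle actin, was seen in 34.1% and 38.4% of other cells of the 5-Aza libraries after thinning, and in 0.108% and 0.0635% of those with DMSO. For Mdm2 the same sum gave 2.22% and 1.19% of its level. The Cdkn1a sizes are not upper bounds, since cells with less sarcomeric RNA had more Cdkn1a for their Acta1. In H3WT 5-Aza cells with 1% to 2% sarcomeric RNA, Cdkn1a was 1236 CPM and Acta1 2717 CPM.

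**Figure D1:**
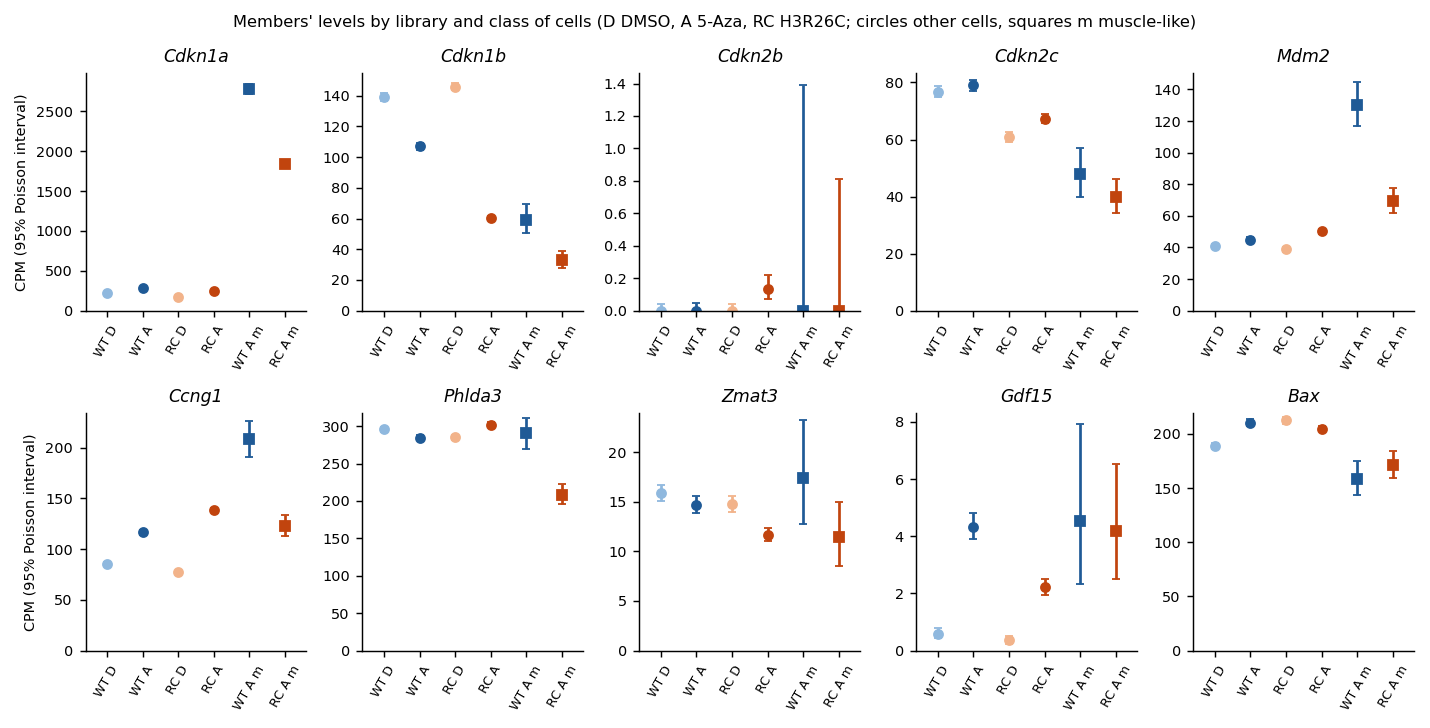
Level (CPM, axis from 0, with exact 95% Poisson intervals) of each of the 10 genes in other cells of the 4 libraries (circles) and in muscle-like cells of the 5-Aza libraries (squares); D is DMSO, A is 5-Aza and RC is H3R26C. Cdkn1a stands at 2780 and 1840 CPM in muscle-like cells and at 166 to 280 CPM elsewhere, whereas Cdkn1b is at 139 and 146 CPM with DMSO and at 32.9 to 107 CPM in the 5-Aza groups and Cdkn2b is at or near 0.

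Cdkn1a followed the content of sarcomeric RNA below the 1% limit as well. In H3WT 5-Aza it was 264 CPM in cells under 0.1%, 337 between 0.1% and 0.5%, 909 between 0.5% and 1% (61 cells), 1236 between 1% and 2% (32 cells), 2814 between 2% and 5%, 3152 between 5% and 10% and 3418 at 10% or more. In H3R26C 5-Aza the same bins gave 232, 312, 1113 (90 cells), 1334 (35 cells), 2053, 2013 and 1378 CPM. Cdkn1a was thus higher in each bin than in the one before in H3WT, whereas in H3R26C it reached its highest level between 2% and 5% and was lower in the 38 cells at 10% or more. Those 38 cells had a median mitochondrial share of 9.95%, against 1.16% in the 47 H3WT cells of that bin, and the part this plays was not tested. Cells split by a UMI of Myog, the myogenic factor that marks commitment, gave the same order: among other cells Cdkn1a was 810 CPM with Myog and 263 without in H3WT, and 608 and 230 in H3R26C. Among muscle-like cells it was 3355 with and 760 without in H3WT, and 1986 and 770 in H3R26C.

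Cdkn1b, which encodes p27, ran the other way along this axis. It went from 108 CPM under 0.1% sarcomeric RNA to 24.2 at 10% or more in H3WT 5-Aza, and from 60.1 to 29.6 in H3R26C 5-Aza. Rb1, the retinoblastoma protein that CDKs phosphorylate, went from 14.8 to 101 CPM and from 13.0 to 99.6. Mdm2 was 45.1 CPM in the lowest bin and 149 in the highest in H3WT, and 49.0 and 85.6 in H3R26C. Ccng1, or cyclin G1, was 118 and 293 CPM in H3WT, but 139 and 93.3 in H3R26C. Between the outer bins the CPM of Ccng1 thus differed in direction between the genotypes, and that of Cdkn1a, Mdm2, Rb1 and Cdkn1b did not.

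**Figure D2:**
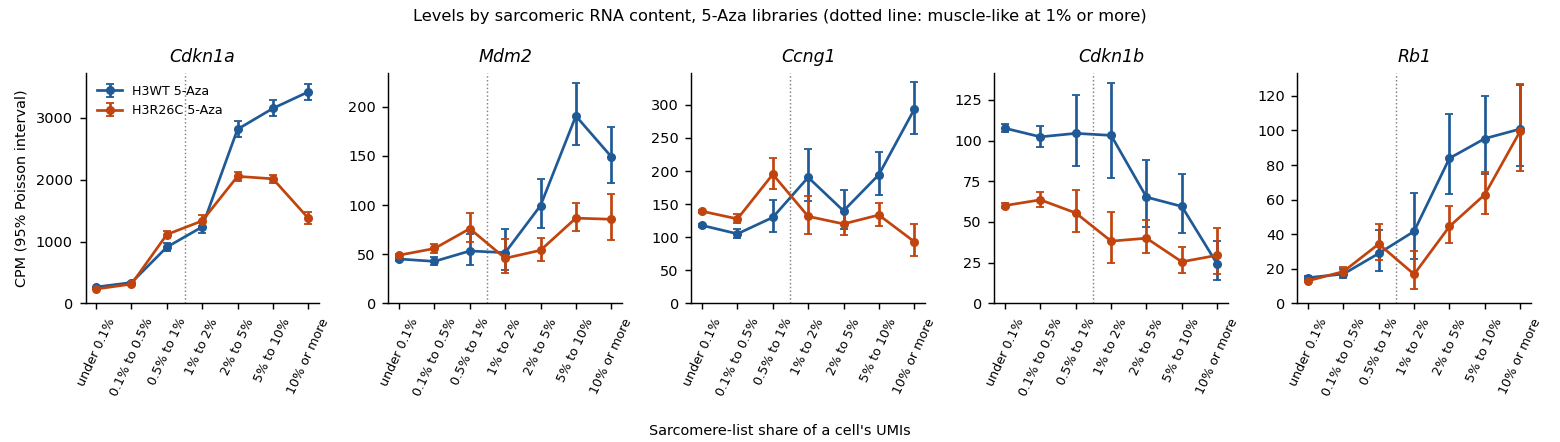
Level (CPM, axis from 0, 95% Poisson intervals) of the members Cdkn1a, Mdm2, Ccng1 and Cdkn1b, and of Rb1, against a cell's share of sarcomeric RNA. The share is in 7 bins, for the H3WT and H3R26C 5-Aza libraries, and the dotted line marks the 1% limit for muscle-like cells. Cdkn1a reaches 3418 CPM in H3WT and peaks at 2053 CPM in H3R26C, and Cdkn1b ends at 24.2 and 29.6 CPM.

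In muscle-like against other cells of H3WT 5-Aza, 3 of the 8 members averaging at least 5 CPM were higher past 1.5-fold (Cdkn1a, Mdm2 and Ccng1) and 2 were lower (Cdkn1b and Cdkn2c), where 15.1% and 29.6% of all genes were past that limit. In H3R26C 5-Aza 1 was higher (Cdkn1a) and 2 were lower (Cdkn1b and Cdkn2c), beside 12.4% and 33.3% of all genes. The median log2 ratio over the 8 members was 0.13 in H3WT and -0.21 in H3R26C, and over all genes -0.22 and -0.29. With so broad a shift, ratios are also given relative to it by median-of-ratios scaling. Under it Cdkn2c lost its call in both libraries (log2 -0.49 and -0.45), Cdkn1b lost it in H3R26C (-0.57), and Mdm2 gained one in H3R26C (0.75). Less the all-gene median, the log2 ratio of Ccng1 in H3R26C was 0.12, where CPM alone gave -0.17.

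Mdm2, the ligase that keeps p53 low, was 44.9 CPM in other cells and 130 in muscle-like cells of H3WT 5-Aza, 2.90-fold (2.59 to 3.24). In H3R26C 5-Aza it was 50.1 and 69.4 CPM, 1.38-fold (1.23 to 1.55). Ccng1, a p53 target that acts back on Mdm2, was 116 and 208 CPM in H3WT, 1.79-fold (1.64 to 1.95), and 139 and 123 CPM in H3R26C, 0.887-fold (0.813 to 0.965). The muscle-like step of both genes was thus larger in H3WT: the ratio of the 2 folds was 2.10 for Mdm2 (1.79 to 2.46), 2.02 for Ccng1 (1.79 to 2.27) and 1.36 for Cdkn1a (1.31 to 1.41). Phlda3, a repressor of Akt, gave 1.47 (1.34 to 1.62), with 285 and 290 CPM in H3WT and 302 and 208 in H3R26C. These ratios rest on 1 library per genotype and were not tested over replicates. The muscle-like groups also differed in UMIs from the gene Malat1. Its median share was 7.13%, 5.83% and 0.604% in H3WT cells with 0 (7 cells), 1 to 2 (33) and at least 3 (131) thinned Cdkn1a UMIs. In H3R26C it was 4.72% (14 cells), 1.32% (43) and 0.614% (169). Mdm2 in these bins was 314, 145 and 153 CPM in H3WT, and 100, 46.5 and 91.1 in H3R26C. The part of this was not tested. Low-UMI barcodes left out by the filter were also read, those with at least 1% sarcomeric RNA against the other excluded ones of their library. For Mdm2 the genotypes were closer there, with folds of 1.39 (H3WT) and 1.27 (H3R26C), as they were for Ccng1, with 1.70 and 1.66. For Cdkn1a and Phlda3 the larger fold was in H3R26C. Cdkn1a had 3.69 (H3WT) and 5.61 (H3R26C), and Phlda3 had 1.08 and 1.37. The H3R26C step of Mdm2 also passed 1.5-fold with the mean of per-cell CPM (log2 0.73) and with a limit of 5% sarcomeric RNA (0.77).

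The remaining members moved less or downwards in muscle-like cells. Cdkn1b was 107 against 59.3 CPM in H3WT and 60.4 against 32.9 CPM in H3R26C, ratios of 0.555 (0.471 to 0.650) and 0.545 (0.460 to 0.641). Cdkn2c, the INK4 inhibitor p18, was 79.0 against 48.0 CPM and 67.3 against 40.0 CPM. Bax, which opens the mitochondrial outer membrane in apoptosis, was 210 against 159 CPM and 205 against 171 CPM. Zmat3, an RNA-binding protein, was 14.7 against 17.4 CPM and 11.7 against 11.4 CPM, and its intervals of the ratio spanned 1 in both libraries. Gdf15, a secreted stress cytokine, rested on 12 and 19 UMIs in muscle-like cells (4.53 and 4.17 CPM, beside 4.33 and 2.21 in other cells).

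The 2 muscle-like groups also differed from each other. They came from different libraries, so genotype and library cannot be told apart here. In H3R26C against H3WT muscle-like cells 4 of 8 members were lower past 1.5-fold and 0 were higher, beside 18.2% and 8.72% of all genes. The 4 were Mdm2 (0.532, 0.455 to 0.622), Cdkn1b (0.555, 0.441 to 0.699), Ccng1 (0.591, 0.524 to 0.666) and Cdkn1a (0.662, 0.641 to 0.683). The members' median log2 ratio was -0.58 and that of all genes -0.14. Cdkn1a lost this call under median-of-ratios scaling (log2 -0.46) and under both other cell filters (-0.55 in each). Cdkn1b lost it at the loosest cell filter (-0.53), and Zmat3 gained one at the strictest (-0.97). In excluded barcodes with at least 1% sarcomeric RNA, the 4 called genes were closer between H3WT and H3R26C or in the other order. Cdkn1a was 1478 and 1425 CPM there, Ccng1 246 and 229, Cdkn1b 61.2 and 56.4, and Mdm2 68.2 and 80.0. The classes also differed in depth, with a median of 13181 UMIs in H3WT and 18362 in H3R26C muscle-like cells, and the part of this was not tested.

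Other genes of the pathway were read from fixed lists. Of 12 p53 regulators tested, 3 were higher and 3 lower in H3WT muscle-like cells, among them Mdm4, the partner of Mdm2 in holding p53 down (108 against 45.6 CPM), and Atr, a DNA damage kinase (1.79-fold). In H3R26C 1 was higher and 4 were lower, among them Trp53, which encodes p53 itself (41.7 against 91.4 CPM). Of all genes 15.1% were higher and 29.6% lower in H3WT, and 12.4% and 33.3% in H3R26C. The regulator counts in H3R26C were near these shares. Trp53 was lower in H3WT muscle-like cells too. It was 53.4 against 93.0 CPM in cells with at least 3 Cdkn1a UMIs after thinning, and 24.2 against 76.0 CPM with 1 to 2. Of the other p53 targets 3 of 25 were higher and 9 lower in H3WT (all genes 15.1% and 29.6%), and 4 of 26 and 13 in H3R26C (all genes 12.4% and 33.3%), counts near these shares. Eda2r, a death receptor of the TNF family, was 6.85-fold and 4.14-fold higher, and Plk2, a stress-responsive kinase, and Aen, a nuclease, were 3.79-fold and 3.09-fold higher in H3WT. Ephx1, an epoxide hydrolase, was at 0.304 and 0.227 of the level in other cells. The list's median log2 ratio was -0.31 in H3WT and -0.56 in H3R26C, beside the all-gene medians of -0.22 and -0.29.

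Beside the same shares of all genes, the cyclin, CDK and pocket protein list had 4 of 17 higher and 8 lower in H3WT, and 4 of 18 and 10 in H3R26C. Ccna2, the S and G2 phase cyclin, was at 0.168 and 0.119, and Cdk1, the mitotic kinase, at 0.197 and 0.212 of the other cells. Rb1 was 5.50-fold and 3.96-fold higher, and E2f2, a factor that Rb1 binds, 11.1-fold and 8.36-fold higher. E2f2 was 1.13 and 3.20 CPM in other cells. It reached the 5 CPM minimum only through muscle-like cells, so its calls follow from the minimum. Of the other CDK inhibitors, Cdkn2d (p19) was 36.3 against 18.9 CPM in H3WT and 52.6 against 21.1 in H3R26C, and Cdkn3, a phosphatase of CDKs, was 12.7 against 2.64 and 20.6 against 1.76. Cdkn1c (p57) reached 10.96 CPM in muscle-like H3WT cells on 29 UMIs and 2.20 CPM in H3R26C on 10, beside 0.171 and 0.236 in other cells. All 29 of the H3WT UMIs lay in the 32 cells with 1% to 2% sarcomeric RNA (57.6 CPM), so this level does not describe the whole class. In H3WT Cdkn1c also reached the 5 CPM minimum only through the muscle-like cells. The integrated stress response, a programme of the factor Atf4 that can also switch on Gdf15, had 3 of 12 higher and 2 lower in H3WT and 7 of 12 higher and 1 lower in H3R26C, led there by Atf3 (5.31-fold), Chac1 (2.88-fold) and Asns (2.52-fold).

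Over 10 groups of cells (other cells of each library split by mitosis genes, and both muscle-like groups), the genes most like Cdkn1a by Pearson correlation of log2(CPM + 1) were Rb1 (r = 0.991), Morc4 (0.988), Ivns1abp (0.986), Qk (0.981) and Cdv3 (0.980), of 6531 genes averaging at least 20 CPM. The same measure for Mdm2 gave Ube2d3 (0.985), Farsb (0.974), Usp15 (0.967), Raph1 (0.964) and Metap1 (0.963). The groups share libraries, and both muscle-like groups lie far from the rest, so these values mainly describe the muscle-like step.

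Treatment with 5-Aza was then read in other cells alone. In H3WT none of the 8 members passed 1.5-fold in either direction, beside 4.86% of all genes higher and 1.64% lower. In H3R26C 2 were higher (Cdkn1a and Ccng1) and 1 lower (Cdkn1b), beside 9.73% and 9.87%, so that 1 call in 8 genes is near the background. The members' median log2 ratio was 0.08 in H3WT and 0.11 in H3R26C (all genes 0.03 and -0.04).

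Cdkn1b, the brake on cyclin E-CDK2, had the lowest ratio of the members. It was 139 CPM with DMSO and 107 with 5-Aza in H3WT, a ratio of 0.768 (0.747 to 0.790), and 146 and 60.4 CPM in H3R26C, a ratio of 0.414 (0.402 to 0.427). The 2 DMSO libraries thus stood close together and the H3R26C 5-Aza library apart. The ratio of the folds was 1.86 (1.78 to 1.93). A Cdkn1b UMI was found in 48.2%, 39.1%, 49.8% and 25.1% of thinned cells in H3WT DMSO, H3WT 5-Aza, H3R26C DMSO and H3R26C 5-Aza (90.8%, 69.1%, 86.4% and 51.3% unthinned), so fewer cells had a UMI where the level was lower.

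Cdkn1a was 1.28-fold higher with 5-Aza in H3WT (1.26 to 1.31) and 1.52-fold in H3R26C (1.49 to 1.55), the latter on the limit, since the mean of per-cell CPM gave a log2 ratio of 0.57 against a limit of 0.58. The difference was 61.4 CPM in H3WT and 86.0 CPM in H3R26C. Taking off the free muscle RNA sized above, which is not an upper bound, would leave 1.18-fold and 1.42-fold, both under the limit. Including the muscle-like cells raised the H3WT log2 ratio from 0.36 to 0.71. Ccng1 was 85.3 and 116 CPM in H3WT, 1.37-fold (1.32 to 1.41), and 77.0 and 139 CPM in H3R26C, 1.80-fold (1.75 to 1.86). Mdm2 was 41.1 and 44.9 CPM in H3WT, and 38.7 and 50.1 in H3R26C, 1.29-fold (1.24 to 1.35). Cdkn1a, Ccng1 and Mdm2 were thus higher with 5-Aza in both genotypes, by small factors.

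The other targets with at least 5 CPM were within 1.5-fold of their DMSO level. Phlda3 was 296 and 285 CPM in H3WT and 285 and 302 in H3R26C, Bax 189 and 210 and then 212 and 205. Zmat3 was 15.9 and 14.7 CPM in H3WT and 14.8 and 11.7 in H3R26C. Cdkn2c was 76.7 and 79.0 CPM in H3WT and 60.8 and 67.3 in H3R26C. Gdf15, below the 5 CPM minimum, had 52 UMIs with DMSO and 354 with 5-Aza in H3WT (0.599 and 4.33 CPM, 7.24-fold, 5.4 to 9.88), and 30 and 235 in H3R26C (0.357 and 2.21 CPM, 6.20-fold, 4.23 to 9.40). It was found in 0.270%, 1.19%, 0.106% and 0.771% of thinned cells in the order H3WT DMSO, H3WT 5-Aza, H3R26C DMSO and H3R26C 5-Aza (0.728%, 2.53%, 0.592% and 1.73% unthinned). Cdkn2b had 0 UMIs in 3 libraries and 14 in other cells of H3R26C 5-Aza (0.132 CPM, 0.0721 to 0.221), where a count of 0 elsewhere allows 0.0345, 0.0367 and 0.0357 CPM.

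Gene lists around the members were read beside all genes, of which 4.86% were higher and 1.64% lower in H3WT. In H3R26C the shares were 9.73% and 9.87%. Of the other p53 targets 2 of 24 were higher and 1 lower with 5-Aza in H3WT, and 3 of 26 were higher and 3 lower in H3R26C. Btg2, an antiproliferative p53 target, was 179 and 67.7 CPM in H3WT and 106 and 19.9 in H3R26C. Trp53i11 was 6.35-fold and 3.12-fold higher, and Perp, a desmosomal protein, was 2.88 and 20.8 CPM in H3R26C. The 2 higher in H3WT were Trp53i11 (1.53 CPM with DMSO) and Eda2r (4.31 CPM). Both, and Perp in H3R26C, reached the 5 CPM minimum only through the 5-Aza cells, so their calls follow from the minimum. Of 13 p53 regulators none passed in H3WT and 2 were lower in H3R26C, Hipk2, a p53 kinase (0.608), and Ep300, an acetyltransferase (0.654). The list of cyclins, CDKs and pocket proteins had 2 of 16 higher in H3WT and 2 of 18 higher and 1 lower in H3R26C, with Cdk1 at 24.5 and 38.3 CPM and at 49.8 and 91.3 CPM. Ccne1, the other gene higher in H3R26C (3.57 and 6.64 CPM), also reached the minimum only through the 5-Aza cells. Ccnd2, a cyclin of G1 phase, was 159 and 79.2 CPM in H3R26C. The share of mitosis-gene high cells moved beside these levels: 3.05% of other cells in H3WT DMSO, 5.58% in H3WT 5-Aza, 6.41% in H3R26C DMSO and 11.7% in H3R26C 5-Aza. The stress response list had 1 of 12 higher and 1 lower in H3WT. In H3R26C it had 5 of 12 higher and 4 lower, both above the shares of all genes.

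**Figure D3:**
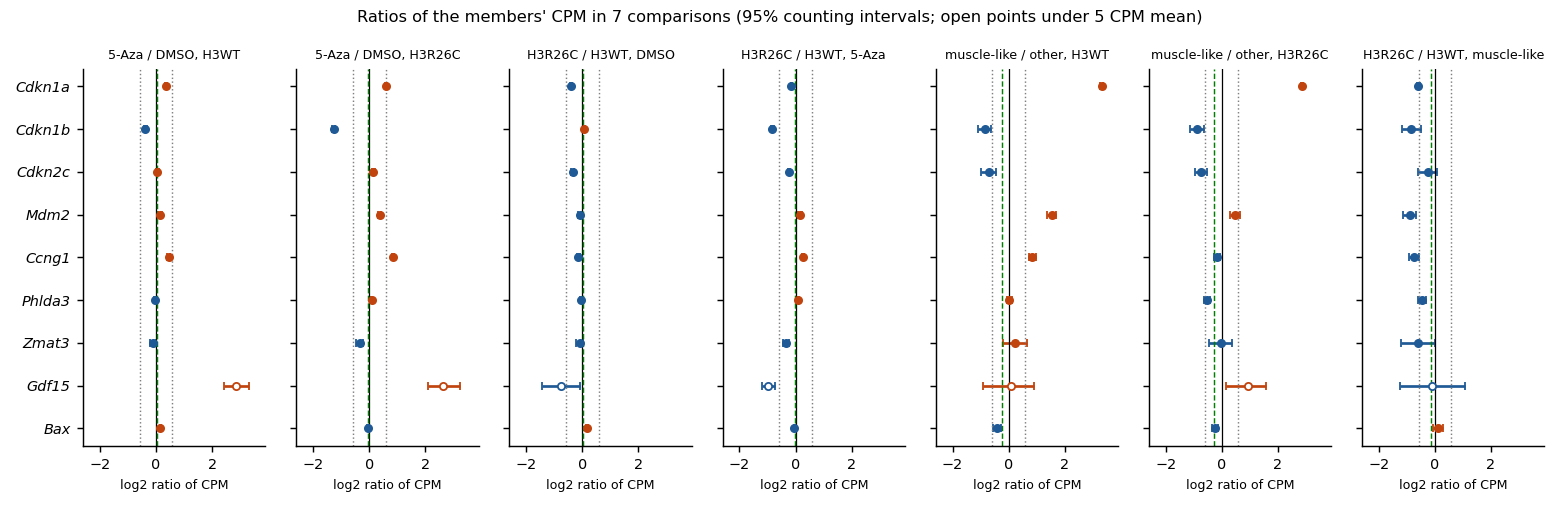
Log2 ratio of CPM with 95% counting intervals for each member in the 7 comparisons; open points have a mean under 5 CPM, dotted lines mark 1.5-fold and the dashed green line is the median of all genes. Cdkn1a is furthest right in both muscle-like comparisons (9.92-fold and 7.30-fold) and Cdkn1b furthest left with 5-Aza in H3R26C (0.414).

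Between genotypes the members were close with DMSO. None of the 8 passed 1.5-fold in either direction, beside 4.24% of all genes higher and 1.65% lower, and Cdkn1a at 0.759 (0.743 to 0.776) and Cdkn2c at 0.792 were furthest from 1. With 5-Aza 0 were higher and 1 lower, beside 8.41% and 8.0%, and this was Cdkn1b at 0.565 (0.547 to 0.584). Gdf15, at 4.33 and 2.21 CPM, was at 0.511 (0.431 to 0.604). Of the other p53 targets 1 of 23 was higher and 2 lower with DMSO, and 4 of 26 and 4 with 5-Aza. The 1 higher with DMSO was Gtse1, at 3.25 CPM in H3WT and 6.77 in H3R26C. It reached the 5 CPM minimum only through H3R26C, so its call follows from the minimum. Cdk1 was 2.04-fold higher in H3R26C with DMSO and 2.38-fold with 5-Aza. The comparisons of treatment and genotype share libraries and are not independent of each other.

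Cells with mitosis genes were compared with the rest of the other cells, since CDK inhibitors are regulated through the cycle. Mitosis-gene high cells had at least 0.2% of UMIs from 20 mitosis genes, and had more UMIs than low cells (medians of 19420 to 36492 against 12589 to 22257). In both DMSO libraries 5 of 8 members were higher in them past 1.5-fold (Cdkn1a, Cdkn2c, Mdm2, Ccng1 and Bax) and 0 were lower, beside 17.1% and 13.7% of all genes in H3WT and 14.7% and 15.5% in H3R26C. In H3WT 5-Aza 5 of 9 were higher and 0 lower, beside 13.8% and 11.2%. The fifth was Gdf15, which reached the 5 CPM minimum only through the high cells (16.9 against 3.27 CPM), so its call follows from the minimum, and without it 4 of 8 were higher. In H3R26C 5-Aza 1 of 8 was higher, Mdm2, and 0 lower, beside 9.32% and 8.80%. Bax, at 1.43-fold in H3WT 5-Aza, and Ccng1, at 1.49-fold in H3R26C 5-Aza, lay just under the limit.

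Cdkn1a was 467 CPM in high and 207 in low cells of H3WT DMSO, 510 and 261 in H3WT 5-Aza, 307 and 151 in H3R26C DMSO and 288 and 245 in H3R26C 5-Aza. The step was 2.26-fold, 1.96-fold and 2.04-fold in the first 3 libraries and 1.18-fold (1.14 to 1.21) in the last. Ccng1 had folds of 2.95, 1.74, 2.34 and 1.49 in the same order. Cdkn2c had 1.76, 1.84, 2.17 and 1.38, whereas Mdm2 kept 1.52, 1.65, 1.52 and 1.51. For Cdkn1a, Ccng1, Cdkn2c, Bax and Phlda3 the step was thus smallest in H3R26C 5-Aza, while the Mdm2 folds lay close together. This was not particular to them: the median log2 ratio of the replication gene list was 2.66 in H3WT DMSO, 2.5 in H3WT 5-Aza, 2.03 in H3R26C DMSO and 1.30 in H3R26C 5-Aza. The difference between libraries was not tested. Cdkn1b had folds of 0.964, 1.10, 0.876 and 1.0, and Zmat3 had 1.24, 0.864, 0.962 and 0.992. Cdkn3, itself a gene of mitosis, was 22.7-fold to 77.1-fold higher and Cdkn2d 4.91-fold to 7.09-fold.

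**Figure D4:**
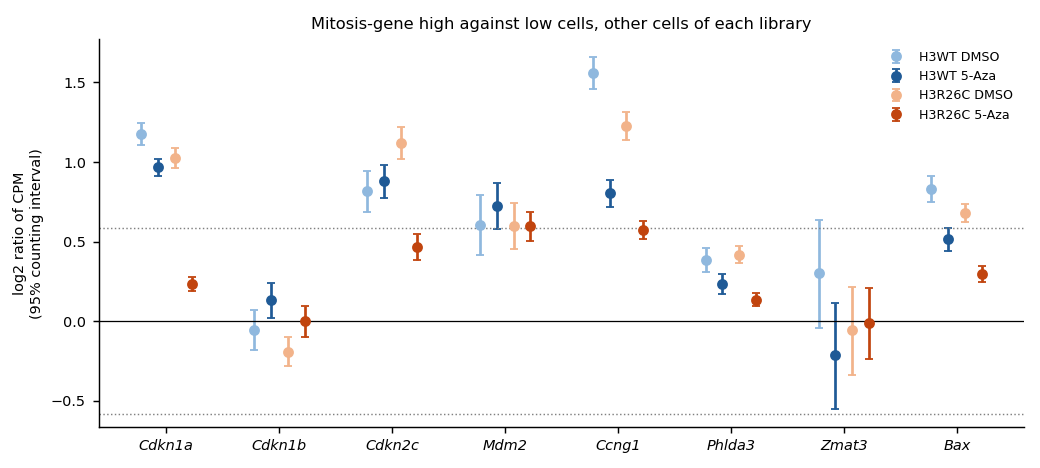
Log2 ratio of CPM in mitosis-gene high against low cells for 8 members in the other cells of the 4 libraries, with 95% counting intervals and dotted lines at 1.5-fold. In H3R26C 5-Aza (dark orange) Cdkn1a lies at 1.18-fold, below the 1.96-fold to 2.26-fold of the other libraries, and Mdm2 lies between 1.51-fold and 1.65-fold in all 4.

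Within each library the p53 targets varied with Cdkn1a from cell to cell. Other cells, thinned to 5000 UMIs, were split into those with 0, 1 to 2 and at least 3 Cdkn1a UMIs. At least 3 were found in 526 of 3710 cells in H3WT DMSO, 978 of 5822 in H3WT 5-Aza, 446 of 4727 in H3R26C DMSO and 1061 of 7393 in H3R26C 5-Aza. Mdm2, Ccng1, Phlda3, Zmat3 and Bax were higher past 1.5-fold in the cells with at least 3 in every library, and Cdkn1b and Cdkn2c were in none. That is 5 of 7 members higher and 0 lower in H3WT DMSO, where 2.92% and 1.57% of all genes were, 5 of 7 and 0 in H3WT 5-Aza, beside 3.27% and 0.872%, 5 of 7 and 0 in H3R26C DMSO, beside 4.10% and 2.76%, and 5 of 7 and 0 in H3R26C 5-Aza, beside 3.55% and 2.41%. Gdf15 is left out of the count in H3WT 5-Aza, since it reached the 5 CPM minimum only through the cells with at least 3.

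Ccng1 showed this in every library. Over cells with 0, 1 to 2 and at least 3 Cdkn1a UMIs it was 58.1, 75.6 and 156 CPM in H3WT DMSO, and 78.8, 100.2 and 199 in H3WT 5-Aza. In H3R26C it was 54.5, 74.4 and 159 CPM with DMSO and 101, 132 and 209 with 5-Aza. The level was therefore higher at both steps in all 4 libraries. Zmat3, whose intervals spanned 1 between muscle-like and other and between mitosis-gene high and low cells, was 11.6, 17.4 and 31.6 CPM in H3WT DMSO, 11.5, 14.2 and 28.2 in H3WT 5-Aza, 12.6, 17.0 and 24.7 in H3R26C DMSO and 9.82, 12.7 and 17.3 in H3R26C 5-Aza. Mdm2 went from 33.6 to 59.3 CPM, 37.2 to 70.3, 33.8 to 58.3 and 41.6 to 79.2 between the outer bins in the same order. Bax went from 156 to 241, 172 to 275, 178 to 304 and 163 to 256 CPM, and Phlda3 from 266 to 411, 239 to 385, 253 to 413 and 246 to 421. Gdf15 went from 1.34 to 11.7 CPM in H3WT 5-Aza (18 and 57 thinned UMIs) and from 0.303 to 6.03 in H3R26C 5-Aza (5 and 32).

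Known p53 targets outside the members were read in the same split. Of the other p53 targets 13 of 23, 14 of 26, 12 of 25 and 11 of 26 were higher in the cells with at least 3 Cdkn1a UMIs in H3WT DMSO, H3WT 5-Aza, H3R26C DMSO and H3R26C 5-Aza, and 0 were lower in each. Aen, Eda2r, Ckap2, Sesn2, Trp53inp1 and Psrc1 were among them in all 4 (Sesn2 is also on the stress response list). Genes that reached the 5 CPM minimum only through the cells with at least 3 were not taken out of this split's list counts. The calls of such genes follow from the minimum. Eda2r averaged 4.31 CPM over all other cells of H3WT DMSO. The split was not particular to p53 targets. Of the mitosis list 17 of 17, 19 of 19, 19 of 19 and 2 of 20 were higher in the same order. Its median log2 ratios were 1.88, 1.31, 1.71 and 0.42, beside 0.63, 0.65, 0.55 and 0.47 for the other p53 targets. Of the replication list 7 of 18, 10 of 17, 8 of 18 and 12 of 20 were higher, with 0 lower on either list. Of the stress response list 2 of 12, 6 of 12, 5 of 11 and 7 of 12 were higher, and 0 lower. Sesn2 was among them in all 4 libraries, and Atf3 in the 5-Aza libraries alone. Asns, Chac1, Psat1 and Trib3 were higher in both 5-Aza libraries. With DMSO, Asns, Chac1 and Psat1 were higher in H3R26C, and Trib3 in H3WT. The stress response list had a median log2 ratio of 0.76 in H3R26C 5-Aza, beside 0.47 for the other p53 targets. Of the p53 regulators 0 passed in either direction in any library, and Trp53 was 83.8 and 89.7 CPM in the outer bins of H3WT DMSO and 82.8 and 113 in H3R26C 5-Aza. Median mitochondrial shares were alike across the bins of a library (3.84% and 3.96% in the outer bins of H3WT DMSO, 2.63% and 2.33% in H3R26C 5-Aza). Mitosis-gene high cells were more common with at least 3 Cdkn1a UMIs, at 7.79% against 1.44% in H3WT DMSO, 10.2% against 3.4% in H3WT 5-Aza, 14.6% against 3.55% in H3R26C DMSO and 15.8% against 10.1% in H3R26C 5-Aza. With these cells left out, a setting chosen after seeing the data, 4, 5, 5 and 5 members were still higher, Bax being lost in H3WT DMSO, and Cdkn2c became lower in H3R26C DMSO. Of all genes 1.79%, 1.81%, 2.31% and 3.34% were then higher and 1.77%, 0.901%, 2.84% and 2.58% lower. Of the other p53 targets 11 of 22, 11 of 24, 10 of 23 and 8 of 24 were higher, and of the stress response list 2, 5, 6 and 7 of 12. Ckap2, which was higher in mitosis-gene high cells of every library, was then among the higher p53 targets in no library. Aen, Eda2r, Sesn2, Trp53inp1 and Psrc1 still were in all 4. The mitosis list then had 0 of 1, 3 of 4, 2 of 3 and 8 of 10 higher, and 1 lower in H3WT DMSO. The replication list had 0 of 15, 1 of 15, 0 of 18 and 4 of 20 higher. Few mitosis genes still averaged 5 CPM, and those that did so only through the cells with at least 3 Cdkn1a UMIs were not taken out. These counts thus cannot show whether leaving mitosis-gene high cells out removed the differences in cycle genes.

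**Figure D5:**
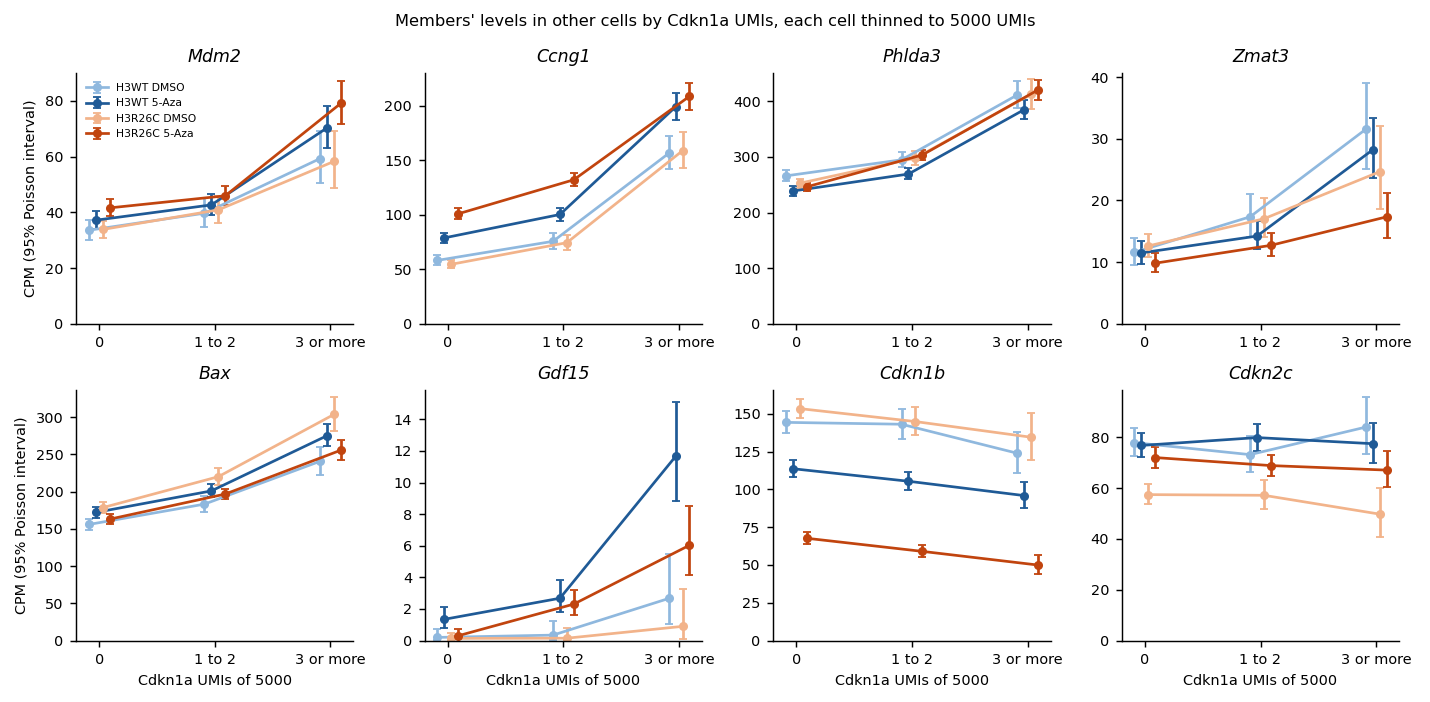
Level (CPM, axis from 0, 95% Poisson intervals) of the members in other cells with 0, 1 to 2 and at least 3 Cdkn1a UMIs of 5000, 1 line per library. Ccng1 goes from 58.1 to 156 CPM in H3WT DMSO and from 101 to 209 CPM in H3R26C 5-Aza, with the middle bin between them in each library.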

How the data were processed

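Barcodes were droplets called as cells in 10x Genomics single-cell RNA-seq. The deposited values are UMI counts per gene and barcode, which the authors made with Cell Ranger (version 6 per the labels) on mm10, with no normalization and before their cell filter. That filter (at least 5000 UMIs, 1500 genes, at most 20% mitochondrial UMIs) was applied here. No doublet caller was run. Counts were summed per library and class and given as CPM with exact Poisson intervals, folds with exact conditional binomial intervals, and shares with exact Clopper-Pearson intervals after thinning to 5000 UMIs. UMIs remove PCR copies, but intervals cover counting error only. Calls are log2 ratios of CPM + 1 past 1.5-fold among genes averaging at least 5 CPM; printed folds carry no pseudocount. All 10 members were named; of each other list, counts and up to 4 genes with the largest ratios, except that 1 gene is not reported here. The members and lists were chosen with earlier results of these data known. Alternatives were scaling, per-cell means, pseudocount, cell filters, cycling cells, muscle limits and low values. Promoter sequences are from RefSeq, positions from GRCm38. The scripts, tested on simulated counts, used Python 3.11.15, numpy 2.4.6, scipy 1.17.1, pandas 2.3.3 and matplotlib 3.10.9.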

Additional observations from a re-analysis of the deposited data

Results flagged for a closer look

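Some members moved in opposite directions in CPM in the 2 genotypes, by counting intervals on 1 library each, and the difference was not tested over replicates. In muscle-like against other cells Ccng1 had a fold of 1.79 in H3WT and 0.887 in H3R26C. Relative to the median of all genes, Ccng1 was higher in both (log2 1.055 and 0.12). With 5-Aza against DMSO Phlda3 had 0.962 in H3WT and 1.06 in H3R26C, and Bax 1.11 and 0.965.

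Barcodes left out by the cell filter were read for the same genes. Those with at least 1% sarcomeric RNA numbered 5121 in H3WT 5-Aza (median of 658 UMIs) and 2193 in H3R26C 5-Aza (791 UMIs). In H3WT they had 1478 CPM of Cdkn1a, 246 of Ccng1 and 68.2 of Mdm2, beside 401, 145 and 49.2 in the other excluded barcodes of that library and 241, 118 and 42.3 in excluded DMSO barcodes. In H3R26C they had 1425 CPM of Cdkn1a, 229 of Ccng1 and 80.0 of Mdm2, beside 254, 137 and 63.1 in the same library and 186, 98.5 and 35.1 with DMSO. By CPM, Ccng1 was thus higher with sarcomeric RNA in excluded H3R26C barcodes (1.66-fold, 1.48 to 1.87) and lower in kept H3R26C muscle-like cells (0.887).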

How the results depend on the processing

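No paired analysis was possible because the series holds 1 library per condition. Of 622 values of single genes under the alternatives, 538 moved by less than their counting interval and 84 moved further, and 21 calls changed side. Scaling changed the sign of some small ratios. Relative to the median of all genes, Ccng1 in muscle-like against other cells of H3R26C 5-Aza went from log2 -0.17 to 0.12. Bax there went from -0.26 to 0.04. Counting members at any level, 5-Aza against DMSO in H3WT gave 1 member past 1.5-fold (Gdf15), 0 with a minimum of 5 CPM and 2 with muscle-like cells included. H3R26C against H3WT with DMSO gave 0, and 1 with a pseudocount of 0.1 CPM. With 5-Aza it gave 2, and 1 without mitosis-gene high cells or with the 5 CPM minimum. In muscle-like cells it gave 4, and 2 at the loosest cell filter, from 1000 UMIs. The cause of these moves was not tested, apart from the 5 CPM minimum, which leaves fewer genes. The counts of the other 3 comparisons stayed within 1.5 times. Without thinning the share of cells with a Cdkn1a UMI was 73.77% in H3WT DMSO, 74.79% in H3WT 5-Aza, 63.68% in H3R26C DMSO and 77.21% in H3R26C 5-Aza. Limits are the lack of replicates, 171 and 226 muscle-like cells, a DMSO time that is not stated, possible doublets, and few UMIs for Gdf15, Cdkn2b and Cdkn1c.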

Other observations

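A few cells expressed adipocyte markers, at least 3 of 8 after thinning: 17 in H3WT DMSO, 55 in H3WT 5-Aza, 27 in H3R26C DMSO and 24 in H3R26C 5-Aza. Their Adipoq, the adipocyte hormone adiponectin, was 1741, 2164, 2494 and 3306 CPM in that order. Cdkn2c, which encodes p18, was higher in them. It was 222 CPM in H3WT DMSO, 292 in H3WT 5-Aza, 253 in H3R26C DMSO and 212 in H3R26C 5-Aza, beside 76.1, 76.7, 59.6 and 66.8 CPM in the rest. The folds were 2.91 (2.30 to 3.64), 3.81 (3.35 to 4.32), 4.25 (3.56 to 5.05) and 3.17 (2.51 to 3.95), so Cdkn2c was higher in all 4 libraries, while in muscle-like cells it was at 0.608 and 0.594 of the other cells. Cdkn1b was lower in all 4, at 0.489, 0.713, 0.633 and 0.437. Bax was at 0.330 (0.207 to 0.50), 0.637 (0.527 to 0.764), 0.577 (0.445 to 0.736) and 0.892 (0.693 to 1.13). Cdkn1a, at 0.975, 0.641, 0.887 and 0.987, was not raised in adipocyte-marker cells as it was in muscle-like cells.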
